A study of Mus musculus with 2 samples.

Results

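*Mif*, *Ddt* and *Cd44* were followed by symbol, 3 genes of the 32285 in the gene list, through every cell class of the day 14 postischemic mouse kidney. *Mif* encodes macrophage migration inhibitory factor, a small secreted cytokine. *Ddt* encodes D-dopachrome tautomerase, its closest relative, and *Cd44* encodes a hyaluronan receptor of the cell surface that takes part in MIF signaling. Single-cell RNA-Seq was done on 1 Cre- library and 1 library labelled PHDTiEC. Mice of the PHDTiEC genotype carried floxed *Phd1*, *Phd2* and *Phd3* alleles (*Phd1*f/f, *Phd2*f/f, *Phd3*f/f) together with *Cdh5*-CreERT2, a tamoxifen-inducible Cre driven by an endothelial promoter, and Cre- littermates lacked the Cre. The mice were 8 to 10 weeks old, underwent unilateral ischemia-reperfusion with 25 minutes of renal artery clamping, and received 4 intraperitoneal injections of 3 mg tamoxifen every other day, starting 1 day after injury. The comparison asked how these genes differed between the genotypes in endothelial cells, where the Cre is active, and in the other cells of the same kidneys. With 1 library per genotype there was no replicate check, and no p-value was computed. A difference between the libraries cannot be told apart from a difference between mice, dissociations or library preparations.

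MIF binds the surface protein CD74, the invariant chain of MHC class II. CD74 has a short cytoplasmic tail, and CD44 serves as the signaling partner of the MIF-CD74 complex. MIF also binds the chemokine receptors CXCR2, CXCR4 and ACKR3, and DDT binds CD74 as well. PHD enzymes mark the hypoxia-inducible factors (HIFs) for degradation, and *Mif* is a known HIF target gene that moves with glycolytic genes in many cells. CD44 is abundant on leukocytes and appears on injured tubular cells, whereas healthy proximal tubule cells carry little of it.

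*Mif* (ENSMUSG00000033307) and *Ddt* (ENSMUSG00000001666) lie on the same strand of chromosome 10 in mm10, *Ddt* at chr10:75771230-75773414 and *Mif* at chr10:75859353-75860240, with 85938 bases between them. *Cd44* (ENSMUSG00000005087) spans chr2:102811141-102901665. All 3 genes are on the minus strand. The 250 bases before each RefSeq start (GRCm38.p6) are shown because the members of this gene pair differed in endothelial cells. They were searched on both strands for ACGTG and GCGTG, the core letters of HIF response elements, and matches are in capitals.

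*Mif*, chr10:75860278-75860527, minus strand: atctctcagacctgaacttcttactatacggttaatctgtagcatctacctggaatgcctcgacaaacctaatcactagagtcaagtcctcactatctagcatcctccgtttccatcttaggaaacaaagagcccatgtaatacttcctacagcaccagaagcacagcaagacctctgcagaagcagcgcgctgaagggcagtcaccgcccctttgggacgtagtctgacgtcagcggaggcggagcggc
*Ddt*, chr10:75773375-75773624, minus strand: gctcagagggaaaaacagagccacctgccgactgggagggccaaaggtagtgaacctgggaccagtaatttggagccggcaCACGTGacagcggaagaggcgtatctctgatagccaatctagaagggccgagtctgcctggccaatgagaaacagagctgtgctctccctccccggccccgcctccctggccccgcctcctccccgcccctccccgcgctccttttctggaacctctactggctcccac
*Cd44*, chr2:102901666-102901915, minus strand: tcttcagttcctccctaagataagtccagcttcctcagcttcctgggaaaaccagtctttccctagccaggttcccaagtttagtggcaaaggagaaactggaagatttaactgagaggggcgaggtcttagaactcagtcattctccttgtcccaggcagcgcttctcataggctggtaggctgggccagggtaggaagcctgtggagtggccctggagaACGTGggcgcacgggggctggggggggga

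*Ddt* held ACGTG on both strands of 1 overlapping site that began 169 bases before the start, and *Cd44* held 1 match that began 29 bases before it. *Mif* had no match in the bases shown and 1 match on the other strand that began at base 30 after the start. GCGTG was found in none of these windows of 250 bases before and 50 after the start. Among 32851 promoters with a window of the same length, 19.6% held ACGTG and 32.4% held GCGTG. The letters are a description of the sequence and not evidence of binding.

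A level is given as CPM, the UMIs of a gene per 1000000 UMIs of the cell class, with the exact Poisson 95% interval. A ratio is the log2 of the CPM in the library labelled PHDTiEC over that in the Cre- library. Its 95% interval comes from the exact binomial split of the gene's UMIs. Every interval given reflects counting error alone. The kept barcodes numbered 8548 and 9309, with median depths of 7500.0 and 7898.0 UMIs, and 28 barcode sequences occurred in both libraries. After removal of 1 cluster rich in *Gm26917* and *Gm42418*, the cells formed 29 classes, of which 26 were named from marker genes. The 3 endothelial-like classes held 406 cells of the Cre- library and 548 of the other, and all 15 endothelial markers were detected in each of them. They comprised mREC-like cells (arterial or medullary renal endothelium), cREC-like cells (capillary renal endothelium) and endothelial-like cells with mural genes. The floxed genes did not fall by count in the pooled endothelial-like cells. *Egln1* (PHD2) went from 67.3 to 189 CPM, *Egln2* (PHD1) from 36.7 to 38.3 CPM and *Egln3* (PHD3) from 24.7 to 148 CPM. Counts of 3′ ends do not tell transcripts with deleted exons from intact ones, so this check does not test recombination, and the sample is called the library labelled PHDTiEC.

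*Mif* was detected in every class of both libraries. The highest levels in the Cre- library were in the intercalated class marked by *Slc4a9* (IC-like, *Slc4a9*) at 756 CPM (721 to 791) and in proximal tubule (PT-like) cells at 743 CPM (723 to 764). These neighbours were not separated by their intervals. PT-like cells led in the library labelled PHDTiEC at 770 CPM (751 to 789), ahead of the *Slc4a9* intercalated class at 663 CPM (621 to 708). The larger intercalated class (IC-like, deep) had 437 and 411 CPM and ranked 11 in both libraries. The lowest levels were in macrophage-like cells marked by *Mrc1* and *Ccl8*, at 118 and 104 CPM, and in monocyte-like cells, at 128 and 98.2 CPM. Tubular epithelium thus held ranks 1 and 2 in both libraries. Cycling T-like cells ranked 4 in the Cre- library at 691 CPM (623 to 765) and 3 in the other at 588 CPM (531 to 648). Injured PT-like cells had 510 and 487 CPM, neutrophil-like cells 466 and 362 CPM, and *Gpnmb* and *Arg1* macrophage-like cells 467 and 345 CPM. Of the 29 levels in the Cre- library, 23 overlapped in their intervals with the next level down.

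Endothelial cells changed place in this order. In the Cre- library the cREC-like, mural-gene and mREC-like endothelial classes ranked 22, 23 and 27 of 29 for *Mif*. In the library labelled PHDTiEC, mREC-like cells ranked 4, cREC-like cells 6 and the class with mural genes 9.

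**Figure D1:**
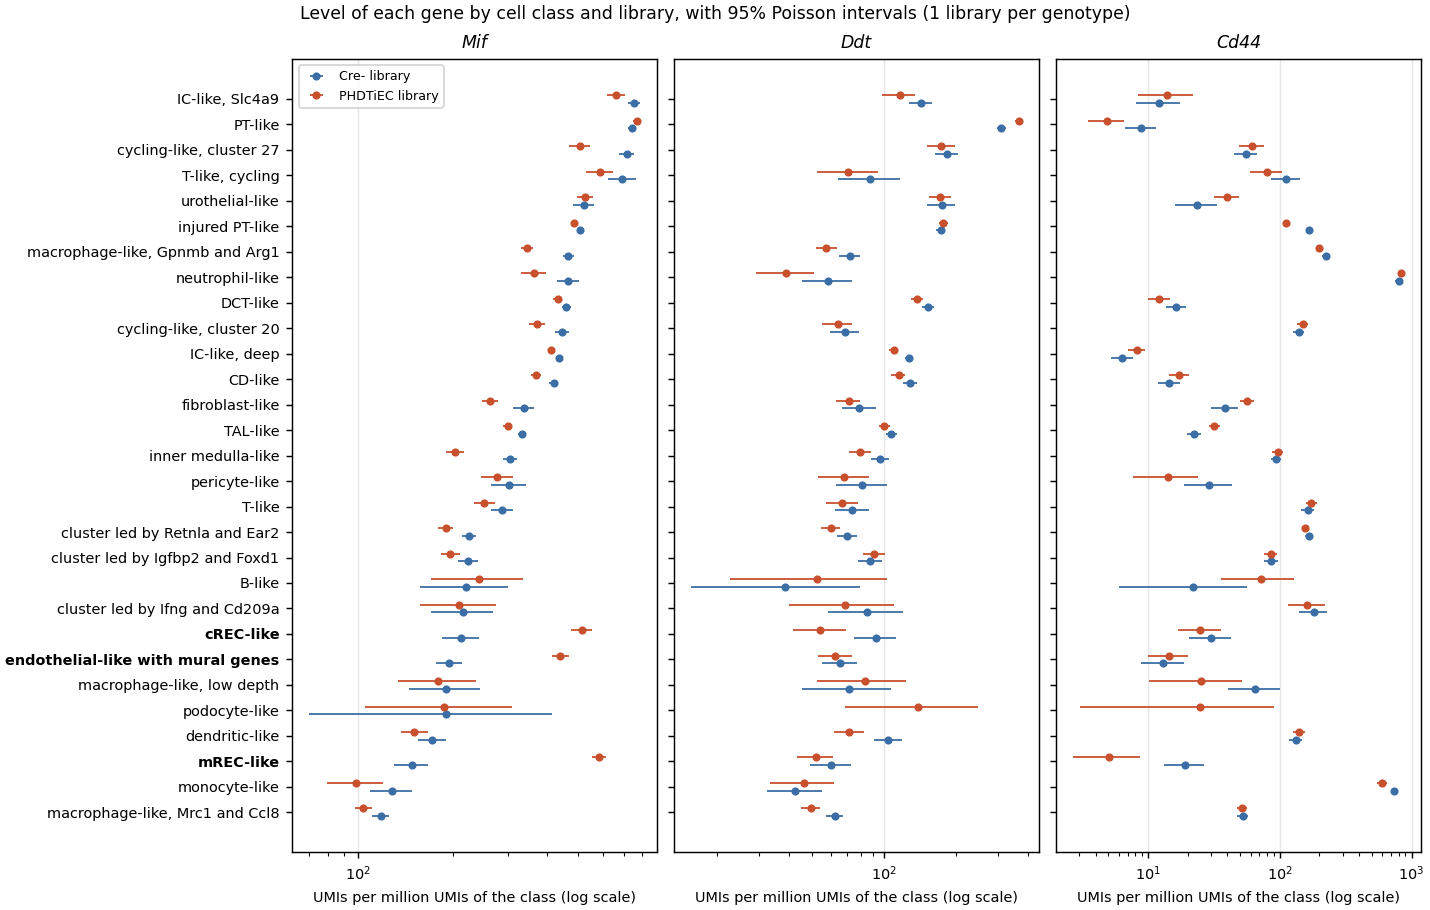
CPM of *Mif*, *Ddt* and *Cd44* (log axis) in the 29 cell classes, with Cre- in blue and PHDTiEC in red, 1 library each; bars are 95% Poisson intervals and endothelial-like classes are in bold. The red *Mif* points of the endothelial-like classes lie at 583, 514 and 440 CPM, apart from the blue points at 148, 212 and 195 CPM, whereas in other classes the pairs lie close together.

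In mREC-like cells, *Mif* was 148 CPM (130 to 167, 264 UMIs, 187 cells) in the Cre- library and 583 CPM (554 to 613, 1503 UMIs, 231 cells) in the library labelled PHDTiEC. The log2 ratio was 1.98 (1.79 to 2.17). It ranked 27 among the 5792 genes with at least 100 UMIs in this class, of which 1.42% were at least 2-fold higher. No single cell held more than 5.30% of the *Mif* UMIs of either library, but the UMIs were not evenly spread. In the library labelled PHDTiEC, 170 of the 231 cells gave 416 of the 1503 UMIs. The rest came from a subcluster of that library described below.

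The cREC-like cells went from 212 CPM (185 to 242) to 514 CPM (474 to 556), a log2 ratio of 1.28 (1.05 to 1.50), in a class where 1.49% of genes were at least 2-fold higher. In endothelial-like cells with mural genes the level went from 195 CPM (177 to 214) to 440 CPM (414 to 468), with a log2 ratio of 1.18 (1.01 to 1.34), where 1.12% of genes were at least 2-fold higher. Over the pooled endothelial-like cells *Mif* was 182 CPM (170 to 194) and 514 CPM (497 to 533). This gave a log2 ratio of 1.50 (1.39 to 1.61), against 0.874% of 9267 genes at least 2-fold higher. In each of the 3 endothelial-like classes the level intervals of the libraries lay apart.

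No other class was past 2-fold. Across the 26 remaining classes the log2 ratio of *Mif* ran from -0.59 to 0.14. In 18 of all 29 classes its interval lay below 0, and in 8 it held 0. The lowest ratio was in inner medulla-like cells, at 305 CPM (290 to 321) and 203 CPM (190 to 217). *Gpnmb* and *Arg1* macrophage-like cells had a ratio of -0.44 (-0.52 to -0.36), and fibroblast-like cells one of -0.36 (-0.50 to -0.21). The ratio over all kept cells was -0.09, and the endothelial-like cells gave 921 of the 45850 *Mif* UMIs of the Cre- library and 3166 of the 48231 of the other.

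**Figure D2:**
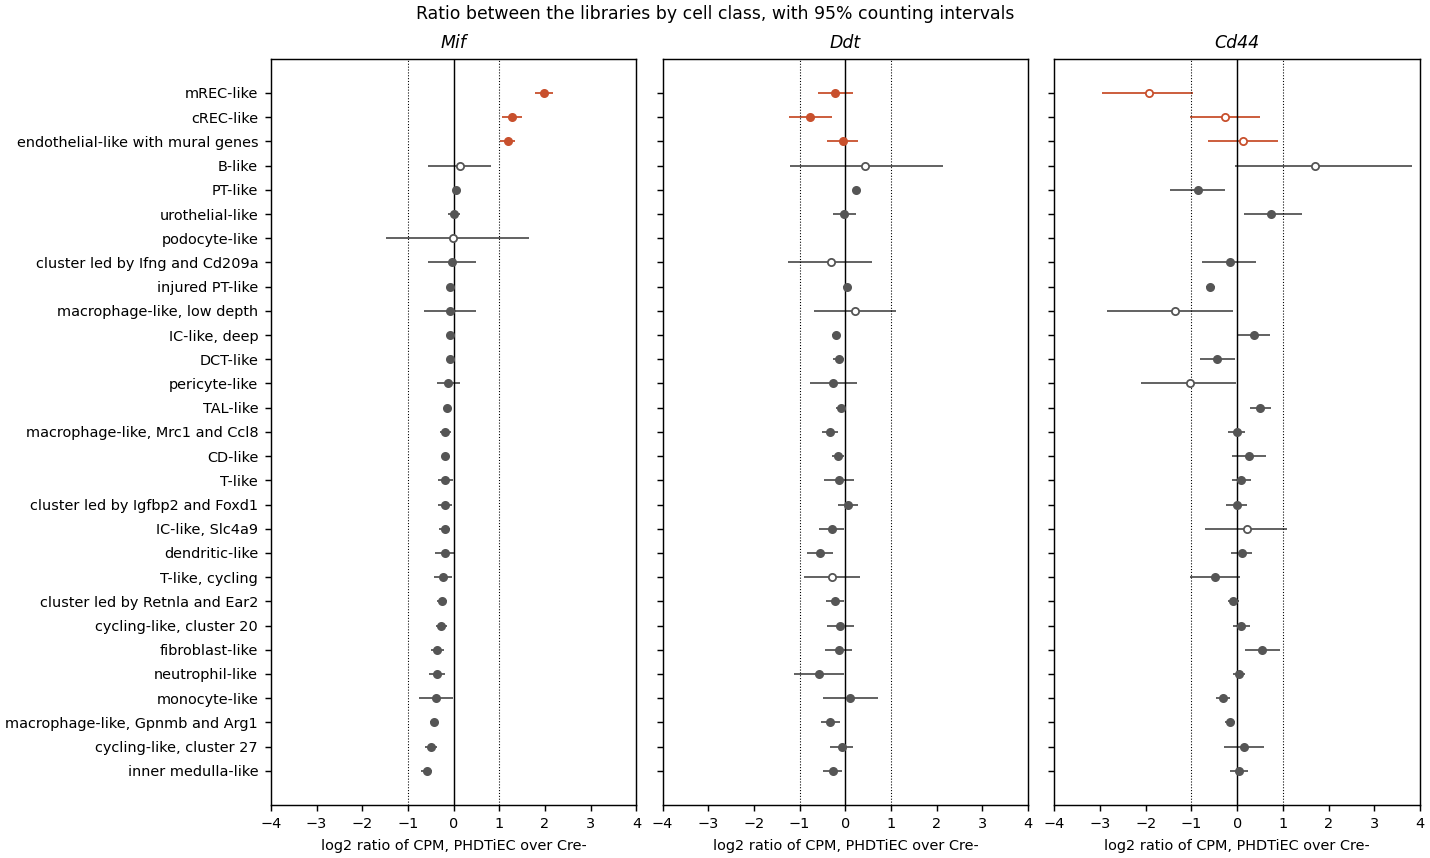
Log2 ratio of CPM, PHDTiEC over Cre-, by cell class for each gene, with 95% counting intervals; red points are endothelial-like classes, open points have under 100 UMIs over both libraries, and dotted lines mark 2-fold. Only the 3 endothelial-like classes lie beyond 2-fold for *Mif*, from 1.18 to 1.98, and no filled point lies beyond 2-fold for *Ddt* or *Cd44*.

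The endothelial difference was also seen in the share of cells. After each cell was thinned to 1000 UMIs, 15.7% of pooled endothelial-like cells of the Cre- library (61 of 389, exact binomial 12.2 to 19.7) and 31.4% of those of the library labelled PHDTiEC (161 of 512, 27.4 to 35.7) had a *Mif* UMI. Thinning left out 17 and 36 shallower cells, and the shares without thinning were 64.8% and 68.4%. The median mREC-like cell had 1.04 *Mif* UMIs per 10000 in the Cre- library and 2.63 in the other. At the 90th percentile of cells (q90) the values were 4.17 and 14.2 per 10000, so the upper part of the distribution moved further than its middle. A lower quartile of 0 was found in both libraries.

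A second clustering of the endothelial-like cells alone left out *Mif*, *Ddt*, *Cd44* and their pathway genes from the variable genes. It also left out the chromosomal neighbours of *Mif* and *Ddt*, the HIF target list used below and glycolysis genes, and it gave 10 subclusters. One of them, led by *Bnip3* and *Mgarp*, held 64 cells of the library labelled PHDTiEC and 0 of the Cre- library. Its *Mif* level was 1071 CPM (1011 to 1135), above the level of every cell class in either library. These cells made up 11.7% of the endothelial-like cells of that library and gave 36.9% of its endothelial *Mif* UMIs. Most of them, 61, were mREC-like cells, 26.4% of that class. A subcluster of 1 library may be that library rather than a cell state. Its leading genes include HIF targets of the list used below, which were not among the variable genes.

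Without this subcluster, *Mif* in mREC-like cells was 148 CPM against 271 CPM (246 to 299), and the log2 ratio of 0.88 (0.65 to 1.10) was no longer past 2-fold. The pooled endothelial-like cells kept a log2 ratio of 1.12 (1.00 to 1.23). In all 9 subclusters with cells of both libraries the *Mif* ratio was above 0, from 0.28 to 1.86, and the interval lay above 0 in 7. The subcluster led by *Aplnr* and *Selp*, mostly cREC-like cells, had 200 CPM (157 to 252) and 603 CPM (542 to 668). That led by *Cytl1* and *Gkn3*, mostly mREC-like cells, had 95.5 CPM (65.3 to 135) and 221 CPM (170 to 282). The smallest ratio, 0.28, was in the shallow subcluster led by *Gm26917*, at 238 and 288 CPM.

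**Figure D3:**
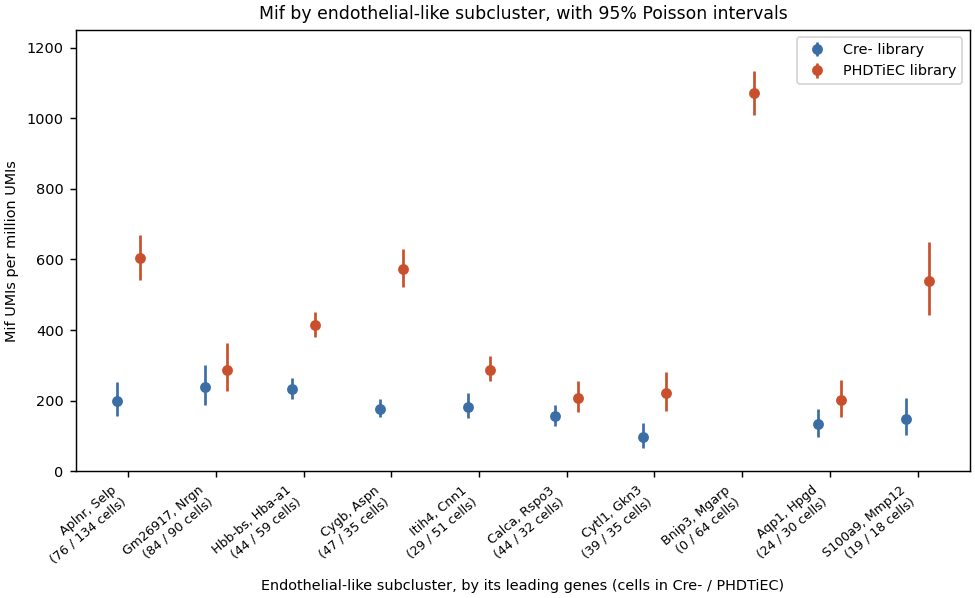
*Mif* CPM in the 10 endothelial-like subclusters, named by their leading genes, with cell numbers of Cre- (blue) and PHDTiEC (red); bars are 95% Poisson intervals. The *Bnip3* subcluster holds 0 Cre- cells and lies at 1071 CPM, and in the other 9 the red point is above the blue one.

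RNA of other cells in these barcodes differed between the libraries as well, in both directions. The 7 thick ascending limb (TAL) markers summed to 461 and 207 CPM in pooled endothelial-like cells, the 12 PT markers to 214 and 167 CPM, and the 9 neutrophil markers to 172 and 68.4 CPM. Other lists were higher in the library labelled PHDTiEC. In the pooled cells the 5 erythroid markers summed to 299 and 550 CPM, the 13 T markers to 26.1 and 67.3 CPM, the 10 NK markers to 5.53 and 19.8 CPM and the 9 collecting duct principal cell markers to 75.8 and 98.1 CPM. Macrophage markers summed to 1707 and 1697 CPM in the pooled cells and to 2379 and 4557 CPM in cREC-like cells. The 10 pericyte markers summed to 3328 and 3521 CPM in the pooled cells. In the class with mural genes they reached 7387 and 8871 CPM, beside 6711 and 6758 CPM for the 15 endothelial markers. Of that class, 17.5% of cells had doublet scores (Scrublet) in the 7% highest of a library, against 13.1% of the pooled cells. Whether its barcodes are doublets was not tested. The mitochondrial share of UMIs was 4.70% and 3.25% in pooled endothelial-like cells and 4.63% and 2.80% in mREC-like cells. The ribosomal RNA-associated genes *Gm26917* and *Gm42418* summed to 8222 and 4845 CPM in mREC-like cells. With mitochondrial and ribosomal RNA-associated genes left out of the CPM, the *Mif* ratio was 1.48 in the pooled cells and 1.95 in mREC-like cells. The part of the other cells' RNA in the *Mif* difference was not tested beyond the values given here. Barcodes under 100 UMIs, which hold mainly free RNA, had *Mif* at 420 and 388 CPM, above the endothelial level of the Cre- library. Tubular and neutrophil markers put the free share at 20.7% and 12.9% of pooled endothelial UMIs. After its removal, *Mif* was 120 and 533 CPM, and the log2 ratio was 2.15. In cREC-like cells of the Cre- library the estimate of 51.8% left no *Mif*, so no ratio could be given there.

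*Ddt* followed another pattern. PT-like cells had the highest level in both libraries, 309 CPM (296 to 323) and 366 CPM (353 to 379), apart from the class ranked next. Injured PT-like cells had 173 and 177 CPM, close to urothelial-like cells at 174 and 171 CPM. Some myeloid classes were at the low end, with 62.1 and 49.2 CPM in *Mrc1* and *Ccl8* macrophage-like cells and 42.5 and 46.0 CPM in monocyte-like cells. The order of the 29 levels was shared between libraries (Spearman 0.78, a description over classes). The same value was 0.69 for *Mif* and 0.92 for *Cd44*.

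In endothelial-like cells *Ddt* did not share the difference of *Mif*. The mREC-like level was 59.9 CPM (49.1 to 72.3) and 51.6 CPM (43.2 to 61.1), a log2 ratio of -0.22 (-0.59 to 0.17). Cells of the cREC-like class had 92.0 and 54.1 CPM, a ratio of -0.77 (-1.24 to -0.30). With free RNA subtracted, at an estimated 51.8% and 17.4% of their UMIs, *Ddt* in cREC-like cells was 51.1 and 41.1 CPM. Thinned to 1000 UMIs, 5.22% and 5.65% of cREC-like cells had a *Ddt* UMI, so the size of this decrease is uncertain. Endothelial-like cells with mural genes had 65.1 and 62.4 CPM, a ratio of -0.06 (-0.40 to 0.28). Over pooled endothelial-like cells the levels of 68.9 and 56.2 CPM gave -0.29 (-0.51 to -0.08), an interval that does not reach the 1.50 of *Mif*. With free RNA subtracted the pooled levels were 53.0 and 47.4 CPM. Under the 16 alternatives the pooled *Ddt* ratio ran from -0.57 to -0.16. Even the *Bnip3* subcluster, where *Mif* was at its highest, had *Ddt* at 50.5 CPM (38.0 to 65.7). *Ddt* was past 2-fold in 0 of 29 classes. The PT-like ratio was 0.24 (0.16 to 0.32), and 18.8% of genes in that class had a higher one. From 3 neutrophil markers alone, the free share there was put at 18.5% and 1.65%. After its removal *Ddt* was 350 and 370 CPM, a log2 ratio of 0.08. The same 3 markers gave 90.0% and 5.51% in cycling-like cells of cluster 20, so this estimate is uncertain.

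The genes around the pair did not share the difference of *Mif* either. Within 200 kb, 18 other genes are annotated, of which 7 had at least 100 UMIs in pooled endothelial-like cells and 0 were past 2-fold, against 0.874% of all genes higher and 0.432% lower. Their median log2 ratio was -0.35, beside -0.00 over all genes. *Gstt2*, a glutathione S-transferase gene between *Ddt* and *Mif*, had 32.0 and 37.5 CPM (ratio 0.23, interval -0.07 to 0.53). *Smarcb1*, a chromatin remodeling subunit gene on the other side of *Mif*, had 59.8 and 58.5 CPM (ratio -0.03, interval -0.26 to 0.19). *Chchd10*, which encodes a mitochondrial protein, had 184 and 136 CPM (ratio -0.43, interval -0.57 to -0.30).

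*Cd44* was highest in leukocytes in these kidneys. Neutrophil-like cells had 806 CPM (756 to 858) and 833 CPM (785 to 883), and monocyte-like cells had 739 CPM (694 to 787) and 598 CPM (550 to 649). After these, *Gpnmb* and *Arg1* macrophage-like cells had 223 and 200 CPM and T-like cells 163 and 173 CPM. Macrophage-like cells marked by *Mrc1* and *Ccl8* had only 52.4 and 52.1 CPM.

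Among tubular cells, *Cd44* separated injured from intact proximal tubule. Injured PT-like cells had 166 CPM (159 to 174, 1891 UMIs) and 111 CPM (105 to 117, 1244 UMIs), whereas PT-like cells had 8.81 and 4.87 CPM. The injured class was lower in the library labelled PHDTiEC, with a log2 ratio of -0.59 (-0.69 to -0.48), and 98.4% of genes in that class had a higher ratio. Its share of cells with a *Cd44* UMI was 65.3% and 47.3%, at median depths of 20488.5 and 18860.0 UMIs. Thinned to 1000 UMIs, the shares were 12.9% (9.79 to 16.5) and 9.19% (6.68 to 12.3), which overlap in their intervals. TAL-like cells went the other way, from 22.3 to 31.8 CPM (ratio 0.51, interval 0.29 to 0.74), although 14.1% of their UMIs in the library labelled PHDTiEC came from 1 cell. Fibroblast-like cells had 38.6 and 56.4 CPM (ratio 0.55, interval 0.17 to 0.94) and urothelial-like cells 23.6 and 39.8 CPM (ratio 0.75, interval 0.14 to 1.41). Of the urothelial-like UMIs, 26.7% and 14.1% came from 1 cell, and 48.6% of that class had doublet scores in the 7% highest. Thinned to 1000 UMIs, the shares were 4.43% and 4.36% in fibroblast-like cells and 4.76% and 1.45% in urothelial-like cells. In TAL-like cells they were 1.42% and 3.02%. In each of these classes the intervals of the shares overlap. Monocyte-like cells had a ratio of -0.31 (-0.46 to -0.16). *Cd44* was past 2-fold in 0 of the 21 classes with at least 100 UMIs. Over all 29 classes its interval lay above 0 in 4 and below 0 in 8.

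Endothelial *Cd44* was close to the background. Pooled endothelial-like cells held 95 UMIs (18.8 CPM, 15.2 to 22.9) and 77 UMIs (12.5 CPM, 9.87 to 15.6), a log2 ratio of -0.58 (-1.04 to -0.14). Thinned to 1000 UMIs, 1.54% and 0.586% of the cells had a *Cd44* UMI, beside 1.05% and 0.266% of PT-like cells, which should carry little of it. Subclusters led by erythroid and macrophage genes, with 15.5% and 14.1% of the endothelial-like cells, held 74 of the 95 and 65 of the 77 UMIs. The other endothelial-like cells had 5.57 and 2.57 CPM, from 21 and 12 UMIs. In mREC-like cells there were 34 and 13 UMIs, with intervals of 13.2 to 26.6 CPM and 2.68 to 8.62 CPM and a log2 ratio of -1.92 with an interval of -2.96 to -0.96. The mREC-like ratio was at least 2-fold lower under all 15 alternatives (-2.26 to -1.05), and it was -1.41 (-2.54 to -0.39) without the *Bnip3* subcluster. These counts lie under the minimum of 100 UMIs, and 26.5% and 23.1% of them came from 1 cell. The estimate of free RNA for the class was 13.2 and 6.27 *Cd44* UMIs.

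The reads do not tell *Cd44* isoforms apart, since 3′ counting sees the end that they share. Of the 4 listed regulators of *Cd44* splicing, *Hnrnpm* had 154 and 176 CPM and *Khdrbs1* 105 and 105 CPM in pooled endothelial-like cells. The epithelial regulators *Esrp1* and *Esrp2* had 10 and 7 UMIs and 12 and 13 UMIs there.

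Among the 6 MIF receptors and partners, 5 had at least 100 UMIs in pooled endothelial-like cells and 0 were past 2-fold, beside 0.874% of all genes higher and 0.432% lower. *Cd74*, the main receptor of MIF and DDT, was measured at 503 and 805 CPM (ratio 0.68, interval 0.61 to 0.75). This level lay below that of PT-like cells, 978 and 945 CPM, and below that of barcodes under 100 UMIs, 3063 and 2937 CPM. The part of free RNA from antigen-presenting cells in the endothelial value was not tested. The top classes for *Cd74* were *Mrc1* and *Ccl8* macrophage-like cells, at 24491 and 20730 CPM. *Cxcr4* had 30.4 and 22.1 CPM in endothelial-like cells (ratio -0.46, interval -0.80 to -0.12), beside 406 and 408 CPM in neutrophil-like cells. *Ackr3*, a scavenging receptor, had 12.4 and 19.7 CPM (ratio 0.66, interval 0.21 to 1.12). *Cxcr2* was highest in neutrophil-like cells, at 902 and 810 CPM, with 8 and 6 UMIs in endothelial-like cells. Intracellular partners moved less, *Cops5* (COP9 signalosome) with a ratio of 0.27 (0.03 to 0.50) and *Prdx1* (peroxiredoxin) with one of 0.14 (0.07 to 0.20).

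The ligands of CD44 and the enzymes that make hyaluronan were thinly covered in endothelial-like cells. Of 8 genes, 4 had at least 100 UMIs in the pooled cells and 0 were past 2-fold, with 0.874% of all genes higher and 0.432% lower. In mREC-like cells 1 of 3 was at least 2-fold lower, where 0.501% of all genes were. That gene was *Spp1* (osteopontin), at 1116 and 337 CPM (ratio -1.73, interval -1.84 to -1.61). In the same cells the TAL markers summed to 234 and 42.3 CPM, and *Spp1* was at 40709 and 28646 CPM in TAL-like cells. The part of free tubular RNA in this value was not tested. In cREC-like cells 2 of 3 measured ligand genes were past 2-fold, beside 1.49% of all genes higher and 1.73% lower. They were *Spp1* at 6965 and 1679 CPM (ratio -2.05, interval -2.12 to -1.98) and *Fn1* (fibronectin) at 27.2 and 89.8 CPM (ratio 1.72, interval 1.12 to 2.37). In the same class the TAL markers summed to 1445 and 265 CPM and the macrophage markers to 2379 and 4557 CPM. The free share was put at 51.8% and 17.4%. The part of other cells' RNA in the *Spp1* and *Fn1* values was not tested. In endothelial-like cells with mural genes *Spp1* and the TAL markers moved the other way, *Spp1* from 2707 to 4471 CPM and the TAL markers from 169 to 358 CPM. *Has3*, a hyaluronan synthase gene, had 40 and 14 UMIs, *Has1* had 2 and 7, and *Has2* had none in either library.

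All 6 partners of CD44 in the membrane and cortex had at least 100 UMIs in pooled endothelial-like cells and 0 were past 2-fold, where 0.874% of all genes were higher and 0.432% lower. Their median log2 ratio was 0.08. *Rdx* (radixin), which ties CD44 to actin, had 396 and 641 CPM (ratio 0.69, interval 0.62 to 0.77). Its relative *Ezr* (ezrin) had 102 and 78.5 CPM (ratio -0.38, interval -0.56 to -0.19), and *Msn* (moesin) had 534 and 611 CPM (ratio 0.19, interval 0.12 to 0.26). In cREC-like cells 2 of 4 measured partners were past 2-fold, in opposite directions, where 1.49% of all genes were higher and 1.73% lower. *Rdx* had 418 and 930 CPM there (ratio 1.15, interval 0.99 to 1.32), and *Ezr* had 155 and 69.9 CPM (ratio -1.15, interval -1.55 to -0.76). The part of other cells' RNA in these values was not tested. Among 9 genes of CD44 shedding and hyaluronan turnover, 6 had at least 100 UMIs in the pooled cells and 0 were past 2-fold, again beside 0.874% higher and 0.432% lower of all genes. The largest of these ratios was 0.52 (0.32 to 0.71) for *Cemip2*, a hyaluronidase of the cell surface, followed by 0.34 (0.05 to 0.64) for *Mmp14* and 0.33 (0.20 to 0.47) for *Adam10*, proteases that cut CD44.

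HIF targets stood apart from these lists. Of 17 genes, 16 had at least 100 UMIs in pooled endothelial-like cells, and 11 were at least 2-fold higher, against 0.874% of all genes. Their median log2 ratio was 1.42. *Bnip3* (mitophagy) had 27.1 and 220 CPM (ratio 3.03), *Slc2a1* (glucose transporter) 15.6 and 72.8 CPM (ratio 2.22), *Pgk1* (glycolysis) 107 and 356 CPM (ratio 1.74) and *Ldha* (lactate dehydrogenase) 328 and 695 CPM (ratio 1.08). *Mif*, with its ratio of 1.50, lay within this range. In mREC-like cells 11 of 15 measured targets were at least 2-fold higher, where 1.42% of all genes were.

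**Figure D4:**
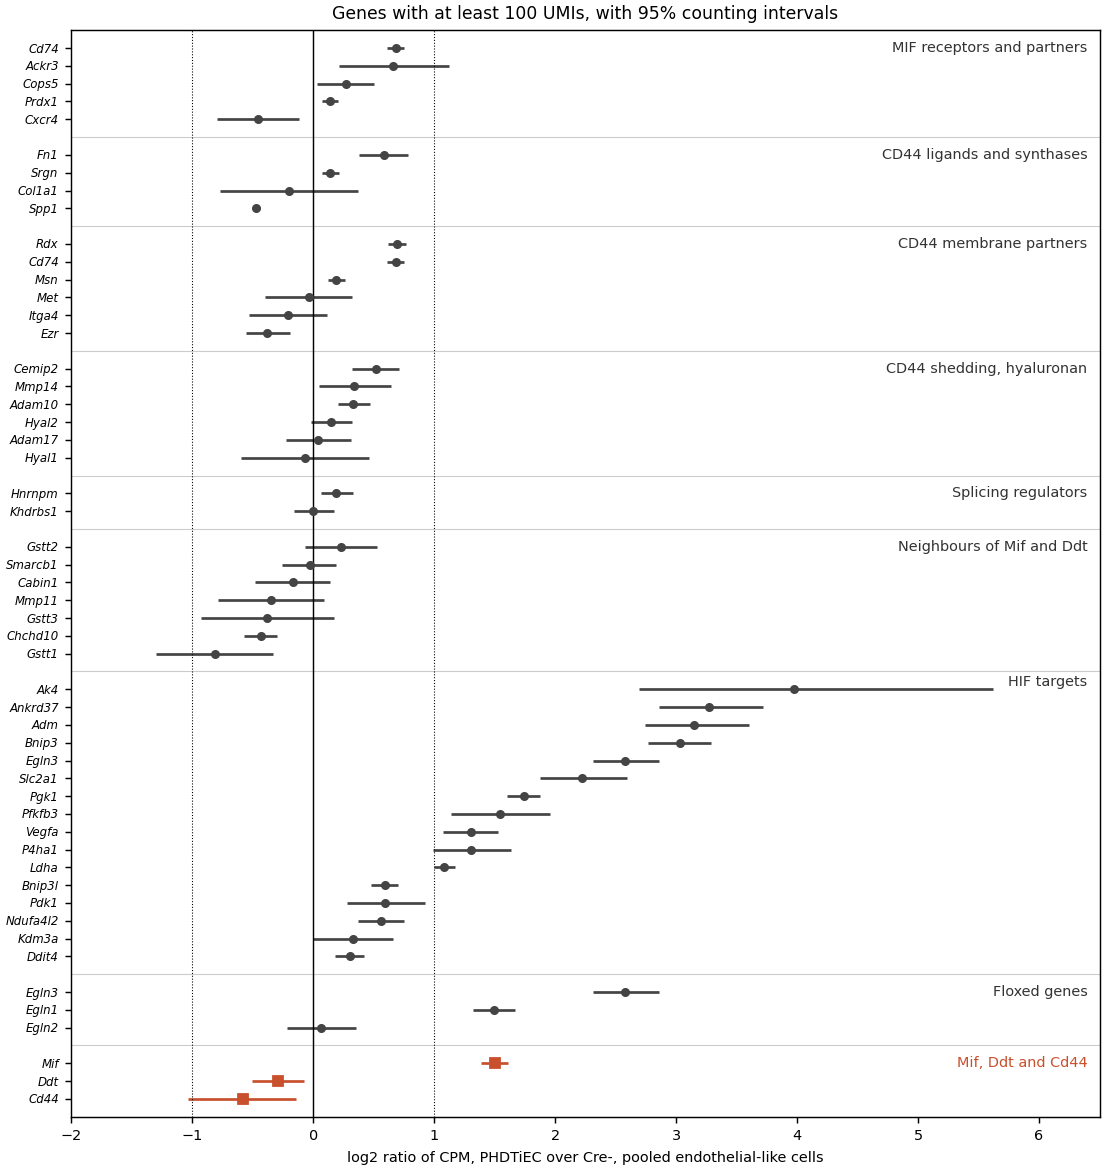
Log2 ratio of CPM, PHDTiEC over Cre-, in pooled endothelial-like cells for the listed genes with at least 100 UMIs, and for *Mif*, *Ddt* and *Cd44* (red squares), with 95% counting intervals; dotted lines mark 2-fold. *Mif* at 1.50 lies among the HIF targets, whose ratios run from 0.30 to 3.97, and away from its neighbours on the chromosome, which run from -0.81 to 0.23. The range of the HIF targets also holds genes of other lists, such as *Rdx*.

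The genes most like *Mif* in level over the 26 named classes of both libraries (52 points) were *Pgk1* and *Ldha* (Pearson r 0.75 each), *Cox7a2* and *Mrpl41* (0.74 each) and *Tpi1* (0.73). The classes of a library share its depth and free RNA, so these values are descriptions. For *Ddt* the closest were *Coa6* (0.96), *Tmem147* (0.92), *Clpx* and *Got2* (0.91 each) and *Exosc4* (0.90). For *Cd44* they were *Unc119* (0.88), *Mob3a* (0.83), *Apobr* (0.82), and *Tnfaip3* and *Ptpre* (0.81 each). Between the members r was 0.46 for *Mif* and *Ddt*, -0.22 for *Mif* and *Cd44* and 0.05 for *Ddt* and *Cd44*.

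By the ratio between the libraries over 26 classes, *Mif* was closest to *Gapdh* (r 0.90), *Aldoa* (0.88), *Bsg* (0.82), *Pde4b* (0.61) and *Tomm6* (0.56) among 604 genes with enough UMIs in every class. *Gapdh* and *Aldoa* encode glycolytic enzymes, and *Bsg* encodes basigin, a chaperone of lactate transporters. In mREC-like cells *Gapdh* had 528 and 1496 CPM (ratio 1.50, interval 1.40 to 1.61), *Aldoa* 299 and 606 CPM (ratio 1.02, interval 0.87 to 1.16) and *Bsg* 261 and 593 CPM (ratio 1.18, interval 1.03 to 1.34). The likeness rested on the endothelial-like classes. Over the other 23 classes r was 0.46 for *Gapdh*, 0.16 for *Aldoa* and 0.21 for *Bsg*.

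**Figure D5:**
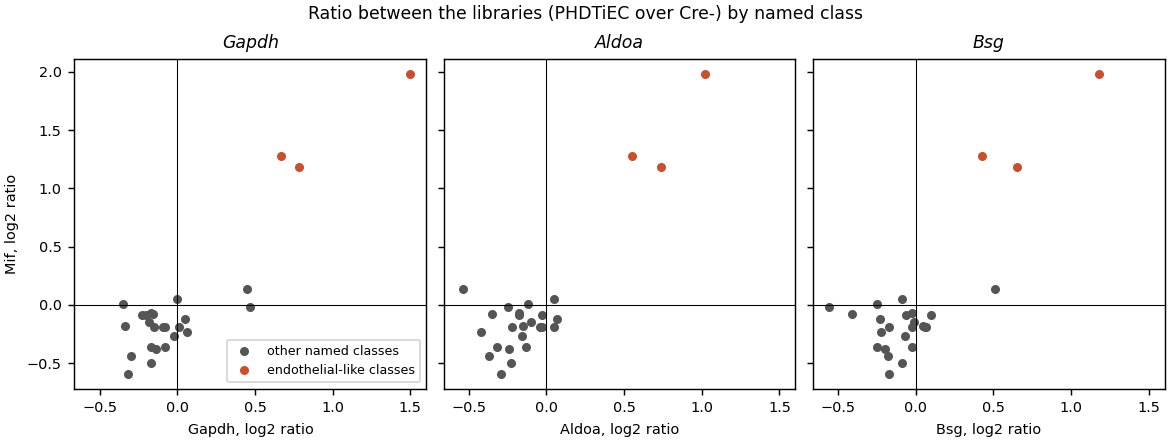
Log2 ratio of *Mif* (vertical) against that of *Gapdh*, *Aldoa* and *Bsg* (horizontal) in 26 named classes; red points are the 3 endothelial-like classes. The red points lie at the upper right of each panel, and the 23 grey points show no comparable slope.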

How the data were processed

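Cells of dissociated postischemic kidneys were sequenced on the 10x Chromium platform (3′ chemistry), 1 library per genotype. The authors aligned the reads to mm10 and counted UMIs with Cell Ranger (version 4 in the file headers). The deposited values are raw UMI counts for all barcodes, with totals of 136004367 (Cre-) and 146758812 (PHDTiEC). Barcodes with 500 to 100000 UMIs, at least 200 genes and at most 50% mitochondrial UMIs were kept. Clusters were made in Seurat 5.3.0 (R 4.3.3) from 2000 variable genes, less the members, their neighbours, their pathway lists and the HIF target list. They rested on 20 principal components at resolution 0.8 (endothelial-like cells: 20 components, resolution 0.4, glycolysis genes also left out). They were named from marker lists, in view of the clusters, and 3 clusters that no list led carry their leading genes. UMIs were summed per class and library. A gene was called at 2-fold with at least 100 UMIs over both libraries, and with no count in 1 library the ratio was set against a floor of 3 counts. Doublets were not removed, and an alternative left out the 7% highest Scrublet scores (scanpy 1.11.5). Ratios and intervals were run on simulated counts drawn with counting error alone, the error that the intervals assume. That run cannot speak for variation between cells, mice or libraries. Of 32285 gene IDs, 32158 matched GENCODE vM21, and 7 RefSeq pseudogenes of *Mif* are not in the gene list, so the assignment of reads shared with them is uncertain. The members and lists were chosen with earlier results of these data known. Genes named are the members, the floxed genes, the listed genes and the 5 most alike by Pearson r.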

Additional observations from a re-analysis of the deposited data

Results flagged for a closer look

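*Mif* differed in direction between cell types. Its log2 ratio, PHDTiEC over Cre-, was 1.50 in pooled endothelial-like cells and -0.59 in inner medulla-like cells, and both intervals excluded 0. With 1 library per genotype the difference between these ratios was not tested.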

How the results depend on the processing

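With 1 library per genotype, no setting replaces a second mouse, and *Cd44* rests on few UMIs in endothelial cells. No paired analysis was possible because each genotype has 1 library. *Mif* stayed at least 2-fold higher in pooled endothelial-like cells under all 16 alternatives (1.12 to 2.15) and in mREC-like cells under 14 of 15. In pooled cells it moved to 1.72 without the highest Scrublet scores, 1.71 with a marker gate in place of clusters and 2.15 with free RNA subtracted. It was 1.12 there without the subcluster of 1 library. With subclusters led by fibroblast or pericyte genes kept, and those led by ribosomal RNA-associated, erythroid or macrophage genes left out, it was 1.76. In mREC-like cells it moved to 1.70 at resolution 0.4, where 55.1% of the 759 cells of their cluster were mREC-like. In the mREC-like class itself it moved to 1.72 as a mean over cells and 2.37 with free RNA subtracted. There it was 0.88 without the subcluster of 1 library and 2.29 without the subclusters led by ribosomal RNA-associated, erythroid or macrophage genes. *Ddt* in pooled cells moved to -0.57 as a mean over cells. *Cd44* there moved to -1.22 without the highest Scrublet scores and -0.06 with free RNA subtracted. Without the subclusters led by ribosomal RNA-associated, erythroid or macrophage genes it was -1.21. The alternatives without subclusters were chosen after seeing the data. With no minimum of 100 UMIs, 3 CD44 ligand genes in place of 0 were past 2-fold. Thinned to 2000 UMIs in place of 1000, the shares of endothelial-like cells with a UMI were 28.9% and 46.6% for *Mif*, 11.6% and 10.8% for *Ddt* and 2.55% and 1.86% for *Cd44* (Cre- first), with more UMIs read per cell. In the classes that are not endothelial-like, 293 of 321 values of *Mif* stayed within the interval, none past 2-fold. No value came from a class whose cells had no cluster of their own under another clustering, nor from *Mif* in cREC-like cells with free RNA subtracted. The cause of the other moves was not tested.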

Other observations

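The cluster rich in *Gm26917* and *Gm42418*, which entered no class, held 585 and 574 cells. Its *Mif* level was 562 and 552 CPM, its *Ddt* level 166 and 191 CPM and its *Cd44* level 47.7 and 45.2 CPM, with log2 ratios of -0.02 (-0.17 to 0.12), 0.20 (-0.05 to 0.46) and -0.08 (-0.60 to 0.44).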
